A study of Mus musculus with 15 samples.

Results

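The elastic fibre and microfibril genes are 10 genes, *Eln*, *Fbn1*, *Fbn2*, *Mfap2*, *Mfap4*, *Mfap5*, *Fbln1*, *Fbln2*, *Fbln5* and *Efemp1*, chosen by gene symbol. They were read across a table of 53465 genes, of which 25549, including all 10, passed a minimum mean of 5 normalized counts and were tested. RNA sequencing was performed on 3 populations sorted from a mouse melanoma and labelled as endothelial, with 5 libraries each and 15 in all. CAG-GFP mice, which carry GFP in all of their cells, received B16-F0 cells, a melanoma line without GFP, and tumors were taken at day 15. Adult mice of both sexes were used in the study, and the sources name no further treatment of these groups. GFP+ Lin- CD34+ cells were sorted as endovascular progenitors (EVP, CD31lo VEGFR2lo), transit amplifying cells (TA, CD31int VEGFR2lo) and definitive differentiated cells (D, CD31hi VEGFR2hi). The Lin gate was set against blood cells and the GFP gate against tumor cells, yet leukocyte and melanoma transcripts were read in every library, and GFP does not separate endothelial cells from other cells of the host. The sources do not say whether libraries came from separate or pooled animals, so the p-values measure the spread between these libraries.

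Elastic fibres give arteries, skin and other tissues their recoil. They consist of a core of crosslinked elastin, laid down on a scaffold of fibrillin microfibrils. Microfibril-associated glycoproteins and fibulins bind these microfibrils, and fibulins help to place elastin on them and to bring in the crosslinking enzymes. In vessel walls elastin is made mostly by smooth muscle cells, with a share from endothelial cells and fibroblasts, while fibrillin microfibrils also anchor endothelial cells and bind latent TGF-beta.

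The libraries held 5394356 to 26513073 reads on genes (median 19049194), and the replicate 1 libraries stood apart. *Gm10800*, a predicted gene, took 10.6%, 8.69% and 8.50% of reads in replicate 1 of EVP, TA and D. Its share was 0.0113% to 0.701% in replicates 2 and 3 of the populations and at most 0.000336% in replicates 4 and 5. The 1106 olfactory receptor genes, which endothelial cells are not known to use, had a mean of 127 normalized counts in EVP replicate 1, 28.9 in TA replicate 1, 20.96 in D replicate 1 and 12.0 in TA replicate 3. Values in the other libraries were between 0.203 and 4.72. Reads were found for 14.5% to 71.0% of these genes in replicates 2 and 3 and for 2.89% to 5.06% in replicates 4 and 5. The population labels were checked with marker lists. The summed normalized counts of 10 pan-endothelial markers were 3265 to 6100 in EVP, 8716 to 74818 in TA and 105094 to 176070 in D. Of the 10, 9 were called lower in EVP than in D at an adjusted p under 0.05 in limma, against 7.46% of all genes tested. *Cdh5*, which encodes VE-cadherin, read 18.3 to 183 in EVP and 7196 to 13383 in D, and *Pecam1*, which encodes CD31, read 119 to 613 and 19114 to 32189. *Pecam1* and *Kdr*, which encodes VEGFR2, are both on the list. The cells were sorted by these proteins, so low levels of these genes in EVP do not check the label. *Tek*, an angiopoietin receptor, was the exception on the list, at 585 to 2335 in EVP and 1689 to 3373 in D. The EVP libraries therefore held most of these endothelial transcripts at a small part of their level in D. These RNA levels by themselves do not bear out the endothelial label of EVP. The paper bases that label in part on lineage tracing in other mice, where nearly all Lin- CD34+ tumor cells carried a mark switched on through *Cdh5*. The CAG-GFP mice sequenced here do not carry that mark. The paper also traced EVP through *Sox18* and found the Lin- CD34+ cells without c-kit, a marker of blood progenitors. It reports the lower *Pecam1* and *Kdr* of EVP and describes EVP as endothelial cells that express many mesenchymal genes.

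The summed counts of 10 fibroblast markers moved with the elastic fibre genes, at 844125 to 1501650 in EVP, 192001 to 610205 in TA and 1029 to 4128 in D. All 10 of these markers were higher in EVP and in TA than in D, against 11.6% and 8.21% of all genes tested. Between EVP and TA 5 of 10 were higher in EVP, against 1.56% of all genes tested. No fibroblast marker was at 0 in all libraries of a population. The 10 mural cell markers summed to 7159 to 33650 in EVP, 4935 to 151121 in TA and 4277 to 8614 in D. Of these, 5 were higher and 1 was lower in EVP than in D, against 11.6% and 7.46% of all genes tested. The 7 melanoma markers, by contrast, were highest in TA, at 69334 to 176152, against 29776 to 67410 in EVP and 18213 to 47920 in D. The 7 leukocyte markers summed to 1747 to 9404 in EVP, 5629 to 34736 in TA and 2944 to 9053 in D, and 5 keratinocyte markers to 1031 to 5982, 1250 to 66886 and 66.1 to 1782. The part of each of these cell types in the results was not tested. In sorted bulk samples, a change in the number of cells that make a transcript and a change in the amount made per cell cannot be told apart.

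RefSeq promoter sequence (build GRCm38.p6) was at hand for 6 of the 10 genes, *Fbn1*, *Mfap2*, *Fbln1*, *Fbln2*, *Fbln5* and *Efemp1*, with 9 promoters among them. The stretches directly upstream of the RefSeq transcription start are given 5′ to 3′ on the strand of the gene for *Efemp1*, which had the smallest adjusted p of the 10 genes between EVP and D, for *Fbn1*, which encodes the backbone of the microfibril, and for *Fbln5*, which differed least between the populations. Capitals mark matches to the motifs searched. They lie at chr11:28852955-28853204 on the plus strand, chr2:125506439-125506688 on the minus strand and chr12:101819120-101819369 on the minus strand. The *Fbn1* stretch lies inside the span that Ensembl gives the gene, so the RefSeq start used here is not the outermost annotated start.
Efemp1: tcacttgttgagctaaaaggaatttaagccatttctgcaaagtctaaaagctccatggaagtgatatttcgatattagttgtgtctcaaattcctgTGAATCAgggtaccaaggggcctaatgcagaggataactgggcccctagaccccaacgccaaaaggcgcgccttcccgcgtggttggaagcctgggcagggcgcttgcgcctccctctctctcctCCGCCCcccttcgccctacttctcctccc
Fbn1: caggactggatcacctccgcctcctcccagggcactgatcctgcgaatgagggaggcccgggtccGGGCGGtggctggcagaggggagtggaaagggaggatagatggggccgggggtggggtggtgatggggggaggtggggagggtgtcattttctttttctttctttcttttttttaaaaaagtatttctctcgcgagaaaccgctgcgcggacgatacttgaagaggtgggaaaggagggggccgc
Fbln5: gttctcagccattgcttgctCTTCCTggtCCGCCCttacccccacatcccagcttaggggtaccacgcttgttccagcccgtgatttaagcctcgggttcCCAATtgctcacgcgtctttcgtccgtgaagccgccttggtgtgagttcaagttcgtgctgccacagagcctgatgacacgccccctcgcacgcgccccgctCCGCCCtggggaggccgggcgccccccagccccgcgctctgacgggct

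Motifs were searched on both strands, namely the TATA box (TATAAA), the CCAAT box (CCAAT), the GC box (GGGCGG), an AP-1 site (TGANTCA), a TEAD site (CATTCC) and an ETS core (AGGAAG). The *Efemp1* stretch held an AP-1 match 154 bases and a GC box 29 bases before the start, the *Fbn1* stretch a GC box 185 bases before it, and the *Fbln5* stretch GC boxes at 221 and 48 bases, a CCAAT box at 150 bases and an ETS core at 230 bases. GC boxes were found in 6 of the 9 promoters of these genes and in 32.7% of 32851 promoters of the same length, and no TATA box was found, against 12.4% of all promoters. The AP-1 site was in 1 of the 9 (6.75% of all), the TEAD site in 1 (12.6%), the CCAAT box in 2 (33.8%) and the ETS core in 2 (29.5%). G and C made up 46.4% to 68.8% of the bases of the 9 promoters, most of them above the median of 52.4% over all promoters. The shares over all promoters were not matched for this. These matches describe letters only, and promoters of the same gene overlap or share a locus.

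All 10 genes were higher in EVP than in D, and all 10 were higher in TA than in D. Of all genes tested, 11.6% were called higher in EVP than in D and 8.21% higher in TA than in D, at an adjusted p under 0.05 in limma. In both comparisons the lowest EVP or TA library was above the highest D library for all 10 genes, which held for 10.2% and 5.56% of genes tested. The median log2 fold change of the 10 genes was 6.75 for EVP against D, where the median over all genes tested was 0.46, and 5.14 for TA against D, where it was 0.24. Between EVP and TA 4 of the 10 genes were higher in EVP and none was lower, against a background of 1.56% of genes called higher in EVP. The populations did not overlap for 5 genes, against 2.7% of all genes tested. In what follows, normalized counts are given for replicates 1 to 5 of a population in that order, and log2 fold changes, on the scale of log2(normalized count + 1), are given with their standard error.

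**Figure D1:**
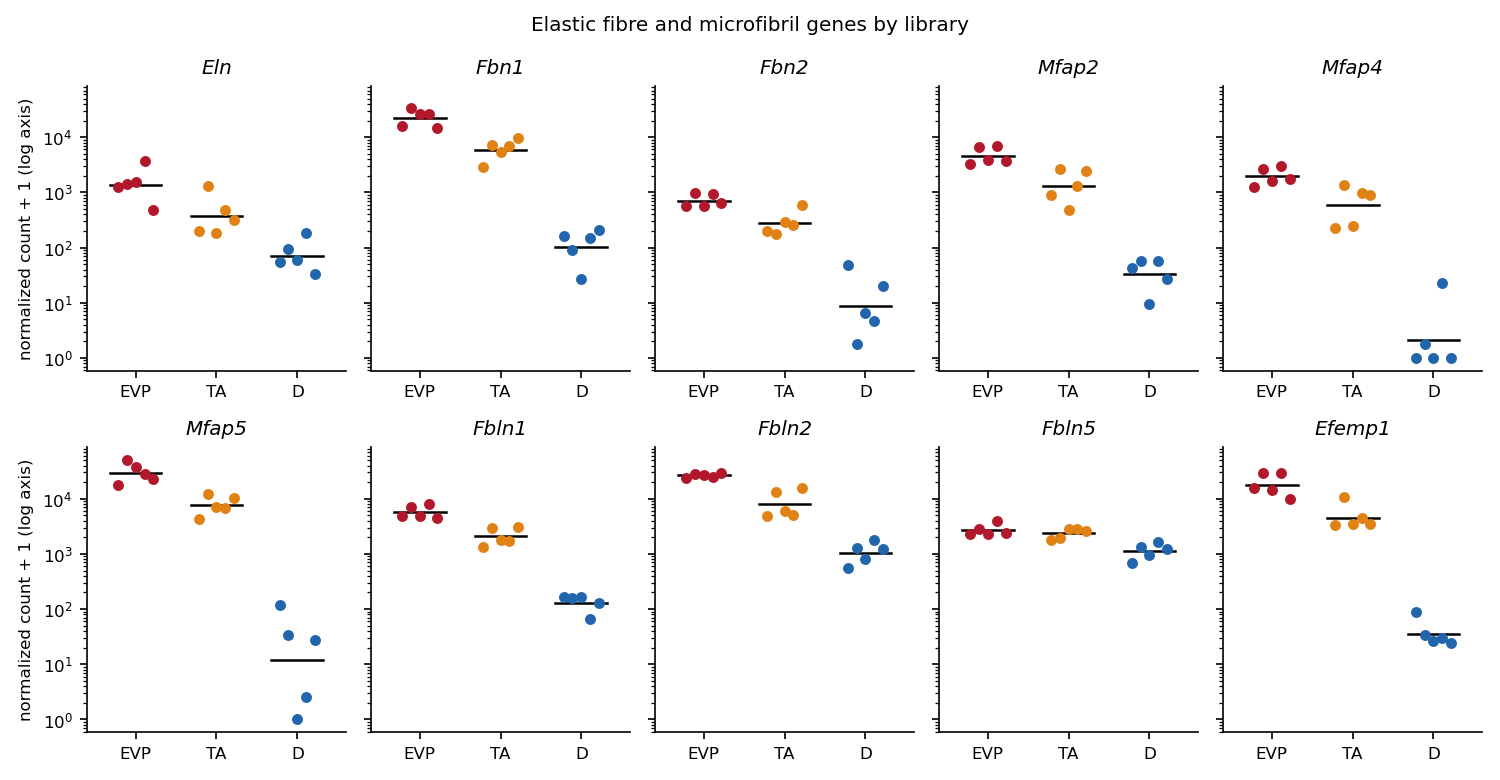
Normalized counts plus 1 (vertical log axis) of each gene in the 5 libraries of EVP, TA and D, with points in the order of replicates 1 to 5 and bars at the mean on the log scale. D libraries sit below all EVP and TA libraries for every gene, by a narrow gap for *Fbln5* and a wide gap for *Mfap5*, *Mfap4* and *Efemp1*.

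*Eln* (ENSMUSG00000029675, chr5:134702593-134747323, minus strand) encodes tropoelastin, the soluble unit of the elastic core. *Eln* read 1264, 1414, 1529, 3738 and 472 in EVP. In TA it read 196, 1283, 185, 485 and 318, and in D 54.9, 93.1, 57.8, 183 and 32.6. The lowest EVP library, replicate 5, lay below TA replicates 2 and 4, while D lay below both populations, with D replicate 4 close to the lowest TA libraries. *Eln* was 19.99-fold higher in EVP than in D by means (log2 fold change 4.25 ± 0.58, adjusted p = 2.9e-05) and 5.86-fold higher in TA than in D (2.38 ± 0.58, adjusted p = 0.0102). Its difference between EVP and TA, 1.87 (95% interval 0.65 to 3.10), missed the threshold (adjusted p = 0.0903). *Eln* also varied most among the EVP libraries, with a coefficient of variation of 72.5%.

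*Fbn1* (ENSMUSG00000027204, chr2:125300594-125507993, minus strand) encodes fibrillin-1, the main component of microfibrils after birth. *Fbn1* read 16007, 34103, 25873, 26753 and 14859 in EVP, 2906, 7183, 5383, 7019.5 and 9718 in TA, and 161, 88.2, 25.8, 147 and 204 in D. The 3 populations formed separate ranges in the order EVP, TA, D. The fold was 188 between EVP and D (7.76 ± 0.45, adjusted p = 2.1e-09), 51.5 between TA and D (5.86 ± 0.45, adjusted p = 1.5e-07) and 3.65 between EVP and TA (1.90 ± 0.45, adjusted p = 0.0260). The call between EVP and TA was lost without EVP replicate 2, 3 or 4 or TA replicate 1 or 3, with log2 fold changes of 1.64 to 1.87, without the replicate 1 library of every population (1.76, adjusted p = 0.0772) and with array weights in limma (1.66, adjusted p = 0.0786). The annotated gene *Gm9913* on the opposite strand overlaps 20.1% of the exon bases of *Fbn1*, and a library kit of this kind keeps no strand, so reads in that stretch cannot be assigned to either gene.

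*Fbn2* (ENSMUSG00000024598) encodes fibrillin-2, which is best known from microfibrils of the embryo. *Fbn2* read 558, 959, 569, 949 and 635 in EVP. In TA it read 202, 177, 286, 254 and 591, and in D 46.7, 0.816, 5.47, 3.76 and 18.7. TA replicate 5 was the only TA library to reach the range of EVP. *Fbn2* was 48.7-fold higher in EVP than in D (6.34 ± 0.65, adjusted p = 1.4e-06) and 19.997-fold higher in TA (4.96 ± 0.65, adjusted p = 5.9e-05), while EVP and TA differed by 1.38 (95% interval -0.001 to 2.76, adjusted p = 0.323). The D values rest on 34, 1, 7, 5 and 31 reads, and D replicate 1 was the highest of them. In EVP replicate 1 the level of *Fbn2*, 2.23 RPKM (reads per kilobase of exon, scaled to the depth of the library), was close to the mean of the olfactory receptor genes in that library, 2.16. Without the replicate 1 library of every population, *Fbn2* differed by 7.04 between EVP and D (adjusted p = 2.6e-06). With 8 or 0.5 added to the counts in place of 1, the difference over all libraries was 5.30 or 6.50.

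Both microfibril-associated glycoproteins, which bind fibrillins and growth factors of the TGF-beta family, had large differences. *Mfap2* (MAGP-1, ENSMUSG00000060572, chr4:141010418-141015984, plus strand) read 3339, 6532, 3832, 6986 and 3786 in EVP, 898, 2706, 482, 1301 and 2425 in TA, and 42.6, 57.1, 8.60, 56.3 and 26.0 in D. *Mfap2* was 128-fold higher in EVP than in D (7.16 ± 0.50, adjusted p = 1.7e-08) and 41.0-fold higher in TA (5.31 ± 0.50, adjusted p = 1.5e-06). All EVP libraries were above all TA libraries, yet the difference of 1.84 (95% interval 0.78 to 2.91) missed the threshold over all genes (adjusted p = 0.0535).

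*Mfap5* (MAGP-2, ENSMUSG00000030116, chr6:122505845-122529290, plus strand) had the largest log2 fold change of the 10 genes. *Mfap5* read 17914, 49418, 37239.5, 28658 and 22596 in EVP, 4266, 12426, 7111, 6834 and 10234 in TA, and 115, 32.7, 0, 1.502 and 26.6 in D. By means it was 885-fold higher in EVP than in D (11.23 ± 0.92, adjusted p = 1.0e-07) and 232-fold higher in TA (9.29 ± 0.92, adjusted p = 2.3e-06). EVP and TA did not overlap either, and the difference between them was 1.93 (95% interval -0.004 to 3.87, adjusted p = 0.324). The D libraries held 84, 40, 0, 2 and 44 reads of *Mfap5*, with replicate 1 the highest. Without the replicate 1 library of every population the difference between EVP and D was 12.22.

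*Mfap4* (ENSMUSG00000042436, chr11:61485431-61488900, plus strand) encodes a fibrinogen-related protein that binds elastin and fibrillin. *Mfap4* read 1264, 2636, 1603, 3051 and 1725 in EVP, 229, 1363, 247, 972 and 914 in TA, and 0, 0.816, 0, 21.8 and 0 in D. A count of 0 reads in D replicates 1, 3 and 5 allows up to 3 reads, which is 4.12, 2.34 and 1.81 normalized counts, covering counting error only. The D mean of 4.52 came from 1 read in replicate 2 and 29 reads in replicate 4. *Mfap4* differed by 9.85 ± 0.76 between EVP and D (455-fold by means, adjusted p = 5.0e-08) and by 8.12 ± 0.76 between TA and D (165-fold, adjusted p = 1.2e-06), and by 10.71 between EVP and D without D replicate 4. Its difference between EVP and TA, 1.73 (95% interval 0.14 to 3.33), did not pass (adjusted p = 0.270), with TA replicate 2 above the lowest EVP library. Since several D libraries are at or near 0, the fitted values of *Mfap4* and *Mfap5* depend on the added constant. With constants of 8 and 0.5 in place of 1, the difference between EVP and D was 7.53 and 10.55 for *Mfap4* and 10.11 and 11.50 for *Mfap5*.

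*Efemp1* (ENSMUSG00000020467, chr11:28853204-28926743, plus strand), which encodes fibulin-3, had the smallest adjusted p of the 10 genes between EVP and D. *Efemp1* read 15399.6, 29008, 14581, 29591 and 10071 in EVP, 3382, 10580.5, 3439, 4409 and 3455 in TA, and 89.2, 32.7, 25.8, 29.3 and 23.6 in D. TA replicate 2 passed the lowest EVP library, and the other TA libraries lay well below EVP. The fold was 492 between EVP and D (8.97 ± 0.40, adjusted p = 1.3e-10), 126 between TA and D (6.97 ± 0.40, adjusted p = 8.6e-09) and 3.90 between EVP and TA (2.00 ± 0.40, adjusted p = 0.00998).

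*Fbln1* (ENSMUSG00000006369, chr15:85205949-85286535, plus strand) encodes fibulin-1, a protein of basement membranes and elastic fibres. *Fbln1* read 4786, 7015, 4874, 8152 and 4544 in EVP, 1346, 2991, 1795, 1697 and 3105.5 in TA, and 165, 159, 166, 64.6 and 126 in D. The ranges of the 3 populations were separate. *Fbln1* was 43.1-fold higher in EVP than in D (5.46 ± 0.29, adjusted p = 8.8e-10), 16.0-fold higher in TA than in D (3.99 ± 0.29, adjusted p = 9.0e-08) and 2.69-fold higher in EVP than in TA (1.46 ± 0.29, adjusted p = 0.0107).

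*Fbln2* (ENSMUSG00000064080, chr6:91212455-91272540, plus strand) encodes fibulin-2, which is found beside fibulin-5 in the inner elastic layer of vessels. *Fbln2* read 23461, 28072, 26913, 25032 and 29392 in EVP, 4905, 13446, 6078, 5051 and 15551 in TA, and 551, 1294, 825, 1769.9 and 1249.8 in D. EVP libraries were tight around their mean, with a coefficient of variation of 8.90%, whereas TA libraries fell into a lower range and the higher values of replicates 2 and 5 (56.5%). *Fbln2* was 23.4-fold higher in EVP than in D (4.65 ± 0.33, adjusted p = 2.0e-08), 7.92-fold higher in TA than in D (2.91 ± 0.33, adjusted p = 1.2e-05) and 2.95-fold higher in EVP than in TA (1.74 ± 0.33, adjusted p = 0.00804).

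*Fbln5* (ENSMUSG00000021186, chr12:101746565-101819055, minus strand), which encodes fibulin-5, an integrin-binding protein needed to assemble elastic fibres, had the smallest differences of the 10 genes. *Fbln5* read 2314, 2801, 2318, 4003 and 2440.15 in EVP, 1784, 1945, 2844, 2796 and 2591 in TA, and 686, 1341, 956, 1611 and 1239 in D. EVP and TA overlapped over much of their range, and the highest D library, replicate 4, was just under the lowest TA library. *Fbln5* was 2.38-fold higher in EVP than in D (1.28 ± 0.23, 95% interval 0.79 to 1.76, adjusted p = 5.2e-04) and 2.05-fold higher in TA than in D (1.07 ± 0.23, 95% interval 0.58 to 1.56, adjusted p = 0.00446). Between EVP and TA the difference was 0.21 with a 95% interval of -0.28 to 0.69 (adjusted p = 0.816). The interval for EVP against D lay below that of each of the other 9 genes, of which the nearest was *Eln* at 3.03 to 5.48.

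**Figure D2:**
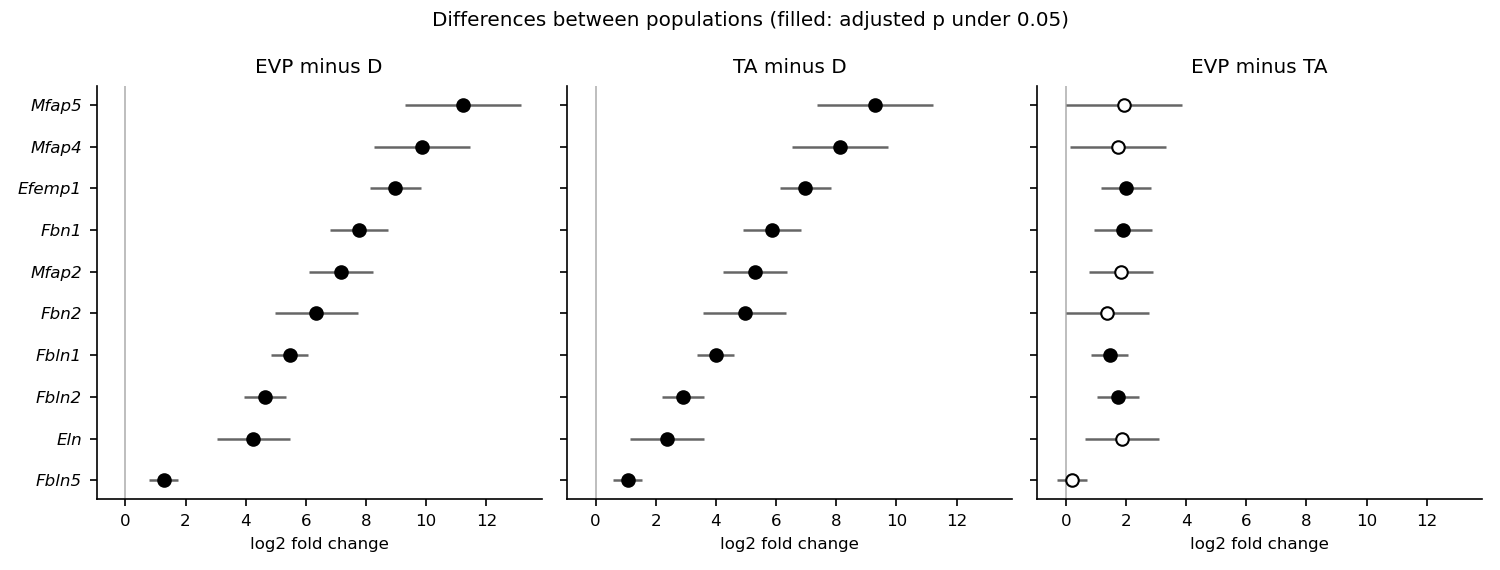
Log2 fold changes (horizontal axis) of the 10 genes for EVP minus D, TA minus D and EVP minus TA, with 95% intervals as lines and filled points where the adjusted p was under 0.05. For EVP minus D the genes run from *Fbln5* at 1.28 to *Mfap5* at 11.23, and for EVP minus TA they lie between 0.21 and 2.00, with *Fbn1*, *Fbln1*, *Fbln2* and *Efemp1* filled.

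In log2 units the TA mean lay nearer to EVP than to D for all 10 genes. Without the log, the TA mean of normalized counts lay nearer to D for every gene except *Fbln5*. Means for *Fbn1* were 23519 (EVP), 6442 (TA) and 125 (D). Those for *Fbln5* were 2775 (EVP), 2392 (TA) and 1167 (D). Which population TA lay nearer to therefore depended on the scale. The log2 positions of *Mfap4*, *Mfap5* and *Fbn2* also depend on the added constant. On a scale where the EVP mean is 0 and the D mean is 1, in log2 units, the TA mean lay at a median of 0.234 over the 10 genes, from 0.163 for *Fbln5* to 0.440 for *Eln*. The 2952 genes called higher in EVP than in D had a median of 0.311 (quartiles 0.171 and 0.522). Among the TA libraries the median over the 10 genes was 0.356 in replicate 1, 0.140 in replicate 2, 0.285 in replicate 3, 0.231 in replicate 4 and 0.145 in replicate 5. TA replicate 1 was nearest to D for 7 of the 10 genes, and replicates 2 and 5 were nearest to EVP for 5 and 4. Fibroblast markers summed to 192001, 518743, 259710, 243028 and 610205 in TA replicates 1 to 5. Pan-endothelial markers summed to 74818, 18101, 37189, 27070 and 8716 in the same order, and mural markers to 4935, 36748, 15700, 38118 and 151121. TA replicates 1 and 3, which were nearest to D, also had the highest shares of *Gm10800* among TA libraries (8.69% and 0.701%) and the highest means of olfactory receptor genes. The part of other cells and of library quality in the order of the TA libraries was not tested.

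Levels of different genes were compared per length, as RPKM, reads per kilobase of exon scaled to the depth of the library. The length was that of all annotated exons of a gene merged, from 1211 bases for *Mfap2* to 13215 for *Fbn2*. The order of genes and their shares depend on this length, and which transcripts the cells used was not tested. In EVP the order was *Efemp1* (549 ± 233, SD, n = 5), *Mfap5* (500.1 ± 197), *Fbln2* (241 ± 36.6), *Mfap2* (231 ± 75.5), *Fbn1* (111 ± 36.5), *Fbln1* (76.9 ± 19.2), *Mfap4* (61.3 ± 21.2), *Fbln5* (23.0 ± 5.58), *Eln* (11.8 ± 8.38) and *Fbn2* (3.18 ± 0.81). The ranges of neighbours in this order overlapped, except those of *Mfap4* and *Fbln5*, which did not. TA had the same order at lower levels, from 162 ± 101 for *Efemp1* to 1.498 ± 0.84 for *Fbn2*. In D the order was different, and *Fbln2* (11.1 ± 4.55) and *Fbln5* (10.5 ± 3.26) led, with overlapping ranges. All other genes had means of 1.95 or less in D, where *Mfap2* (1.95 ± 1.07), *Fbln1* (1.94 ± 0.64) and *Efemp1* (1.202 ± 0.77) were followed by *Eln* (0.643), *Fbn1* (0.633), *Mfap5* (0.592), *Mfap4* (0.143) and *Fbn2* (0.0686). In D replicate 1 the olfactory receptor genes averaged 0.386 on this scale, above *Fbn2* at 0.207 and close to *Eln* at 0.397.

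Summed over the 10 genes, this level was 1809 ± 517 in EVP (1193 to 2443), 609.8 ± 274 in TA (319 to 1009) and 28.8 ± 7.65 in D (20.9 to 38.3). As a share of all reads on genes, the 10 genes took 0.683% ± 0.172 in EVP, 0.238% ± 0.097 in TA and 0.0173% ± 0.005 in D. The make-up of the sum was also different in D. *Efemp1* and *Mfap5* contributed 29.8% ± 6.5 and 27.3% ± 6.11 of the sum in EVP and 26.6% ± 7.24 and 24.9% ± 3.41 in TA, but 4.76% ± 4.22 and 2.47% ± 3.72 in D. *Fbln5* contributed 1.32% ± 0.28 in EVP, 4.29% ± 1.76 in TA and 36.2% ± 5.07 in D, and *Fbln2* 14.2% ± 4.42, 14.9% ± 4.09 and 37.5% ± 7.78. The highest share of *Fbln5* in any EVP or TA library was 6.37%, and the lowest in D was 27.7%, in replicate 1. These shares restate the levels above and were not tested.

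**Figure D3:**
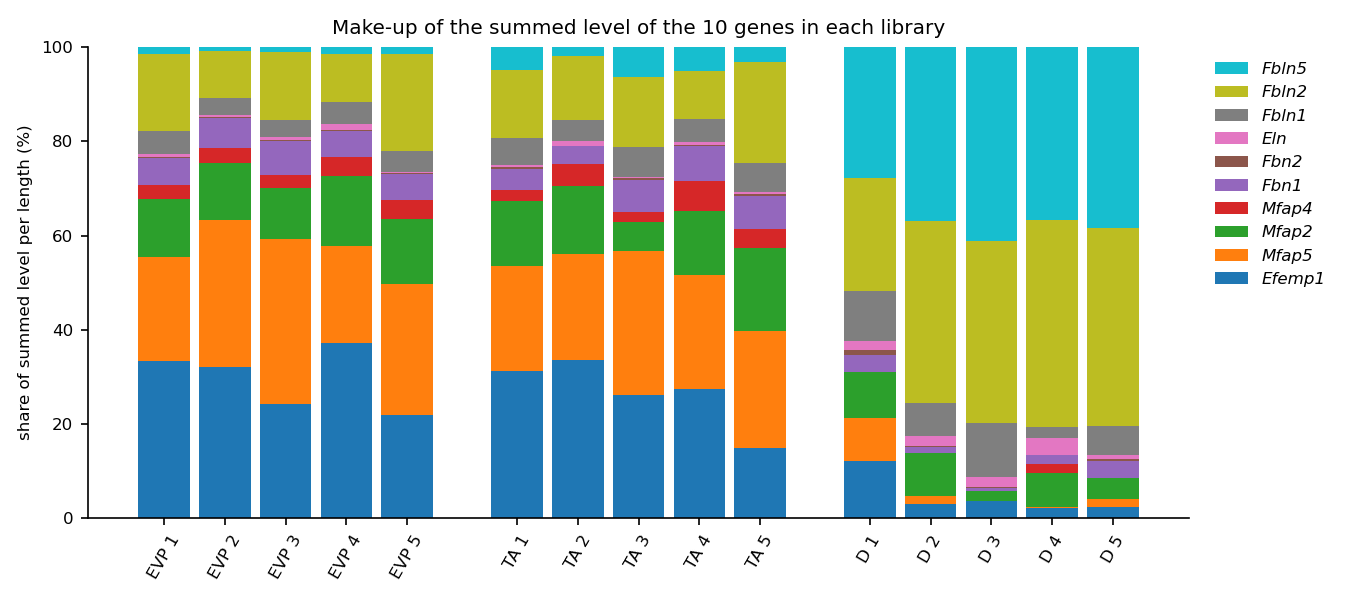
Share of each gene (vertical axis, percent) in the summed level per exon length of the 10 genes, with a bar for each library of EVP, TA and D. EVP and TA bars are filled mostly by *Efemp1*, *Mfap5*, *Fbln2* and *Mfap2*, and D bars by *Fbln2* and *Fbln5*, with D replicate 1 holding more of the other genes than the rest of D.

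Related genes were compared by the ratio of their normalized counts plus 1 within each library, without correction for length. The log2 ratio of *Mfap5* to *Mfap2* was 2.42, 2.92, 3.28, 2.04 and 2.58 in EVP, 2.25, 2.20, 3.88, 2.39 and 2.08 in TA, and 1.42, -0.79, -3.26, -4.52 and 0.03 in D. Per length, *Mfap5* was above *Mfap2* in every EVP and TA library and below it in every D library, where the RPKM of *Mfap5* was 1.88, 0.593, 0, 0.0253 and 0.462 and that of *Mfap2* 2.05, 3.07, 0.455, 2.81 and 1.34. In D replicates 1 and 5 this order rested on the exon lengths used, 3589 bases for *Mfap5* and 1211 for *Mfap2*. Reads of *Mfap5* and *Mfap2* were 84 and 31 in D replicate 1 and 44 and 43 in D replicate 5. The ratio was higher in EVP than in D by 4.07 and in TA than in D by 3.98 (exact two-sided permutation test, p = 0.00794 for each, the smallest that 5 against 5 libraries can give, adjusted p = 0.0357 over 9 tests). EVP and TA differed by 0.09 (exact permutation p = 0.825, adjusted p = 0.825). The D ratios rest on 0 to 84 reads of *Mfap5* and 11 to 75 reads of *Mfap2*. With a library of either population left out, p was 0.0159, the smallest that 5 against 4 libraries can give (exact permutation, adjusted p = 0.0714), and the differences stayed between 3.30 and 4.78 for EVP and between 3.21 and 4.69 for TA.

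The fibrillin pair did not separate in the same way. The log2 ratio of *Fbn2* to *Fbn1* was -4.97 ± 0.37 in EVP, -4.45 ± 0.61 in TA and -3.55 ± 1.71 in D, and no difference passed (exact permutation, adjusted p = 0.257, 0.257 and 0.330 for EVP against D, EVP against TA and TA against D). D libraries ranged from -5.62 to -1.76, resting on 1 to 34 reads of *Fbn2*. With a constant of 8 in place of 1 the differences from D became -2.34 for EVP and -1.79 for TA (exact permutation, adjusted p = 0.0179 for both). With 0.5 they were -1.27 and -0.75 (exact permutation, adjusted p = 0.286 and 0.455). A constant of 8 is above the *Fbn2* counts of D replicates 2, 3 and 4, so the difference depends on the constant. The log2 ratio of *Fbln2* to *Fbln1* was 2.21 ± 0.42 in EVP, 1.94 ± 0.31 in TA and 3.02 ± 1.15 in D, with differences of -0.81 between EVP and D, 0.28 between EVP and TA and -1.08 between TA and D (exact permutation, adjusted p = 0.262, 0.330 and 0.214). *Fbln2* was above *Fbln1* in all 15 libraries, per length as well, and the highest ratio, 4.75, was in D replicate 4.

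**Figure D4:**
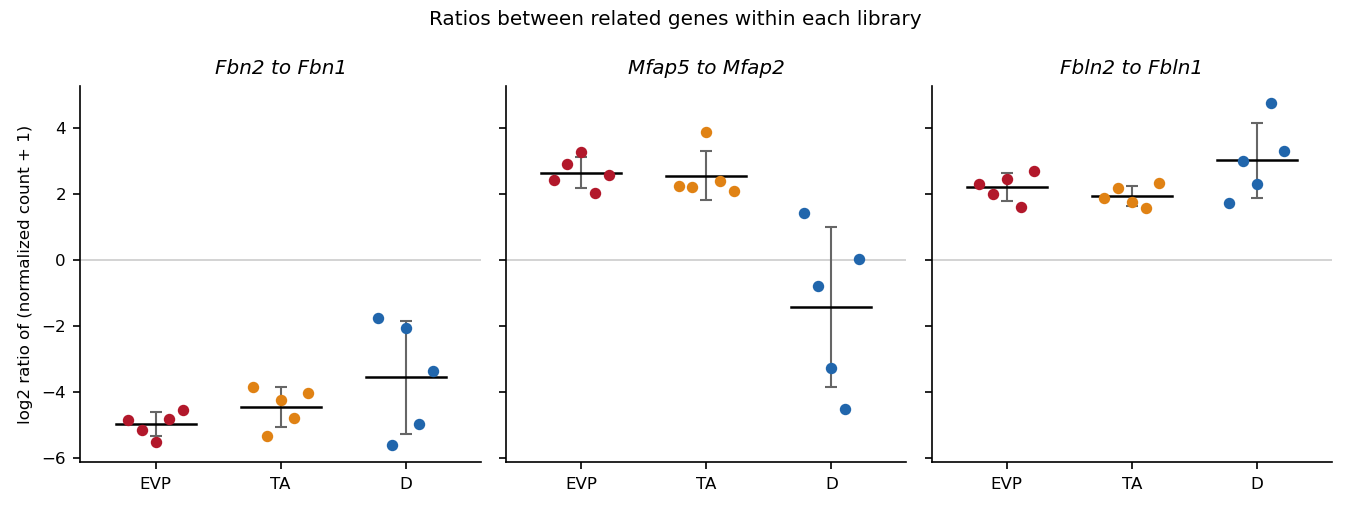
Log2 ratio of normalized count plus 1 (vertical axis) for *Fbn2* to *Fbn1*, *Mfap5* to *Mfap2* and *Fbln2* to *Fbln1* in each library of EVP, TA and D, with the mean as a bar and the SD as a line. The D libraries are spread most for each ratio, and for *Mfap5* to *Mfap2* all 5 lie below the EVP and TA libraries.

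Other genes of the elastic fibre pathway were read from 7 lists holding 39 genes, of which 36 were tested. Of these, 23 were higher in EVP than in D and 3 were lower, and the median log2 fold change was 3.10. In all genes tested, 11.6% were called higher and 7.46% lower in EVP than in D, with a median of 0.46. Between TA and D 17 of the pathway genes were higher and 1 lower in TA, with a median of 2.14. The shares over all genes tested were 8.21% and 4.31%, with a median of 0.24. Between EVP and TA 10 of the pathway genes were higher and 2 lower in EVP, with a median of 1.05. The shares over all genes tested were 1.56% and 1.94%, with a median of 0.09. The gene lower in TA than in D was *Mmrn2*, and those lower in EVP than in TA were *Mmrn2* and *Neu1*. The number of calls between EVP and TA, 12 in all, fell to 4, 5 and 7 without EVP replicate 2, 3 or 4 and to 6, 5 and 5 without TA replicate 1, 3 or 4.

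All 5 crosslinking enzymes, which turn soluble elastin into an insoluble polymer, were higher in EVP than in D. *Lox*, which encodes lysyl oxidase, differed most, with 37579.9 ± 10902 normalized counts (SD, n = 5) for EVP against 48.7 ± 59.9 for D (10.74 ± 0.83, adjusted p = 5.1e-08), and 4 of the 5 enzymes were also higher in TA than in D. The latent TGF-beta binding proteins, some of which dock growth factor on microfibrils, had 3 of 4 higher in EVP, led by *Ltbp1* (7.04 ± 0.58, adjusted p = 1.1e-07). *Ltbp4* read 1499.7 ± 1546 in EVP and 1954 ± 450.3 in D (-0.80 ± 0.43, adjusted p = 0.256). Of the other fibulins and hemicentins, 3 of 4 were higher in EVP, with *Fbln7* at 139.7 ± 71.4 normalized counts for EVP and 0.824 ± 1.84 in D (6.52 ± 0.997, adjusted p = 9.7e-05).

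Emilins and multimerins, a family of glycoproteins that share the EMI domain, moved both ways. *Emilin1* and *Emilin2* were higher in EVP than in D, and the endothelial genes *Mmrn1* (-5.11 ± 1.36, adjusted p = 0.0119) and *Mmrn2* (-6.83 ± 0.77, adjusted p = 3.9e-06) were lower. *Mmrn2*, whose product sits on the surface of endothelial cells, read 125 ± 107 in EVP, 2400.2 ± 2399 in TA and 10377 ± 2867 in D. Of the microfibril-associated ADAMTS and ADAMTS-like genes, 4 of 8 were higher in EVP than in D and 4 did not pass, and *Adamtsl3* led them (6.57 ± 0.75, adjusted p = 4.2e-06). Elastin-degrading proteases were higher in EVP for 6 of 8, with *Mmp9*, a gelatinase, at 7.47 ± 0.93 (adjusted p = 1.0e-05). The elastin receptor complex had no gene higher in EVP, and its sialidase *Neu1* fell from 2056 ± 429 in D to 634 ± 229 in EVP (-1.75 ± 0.24, adjusted p = 3.2e-05).

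**Figure D5:**
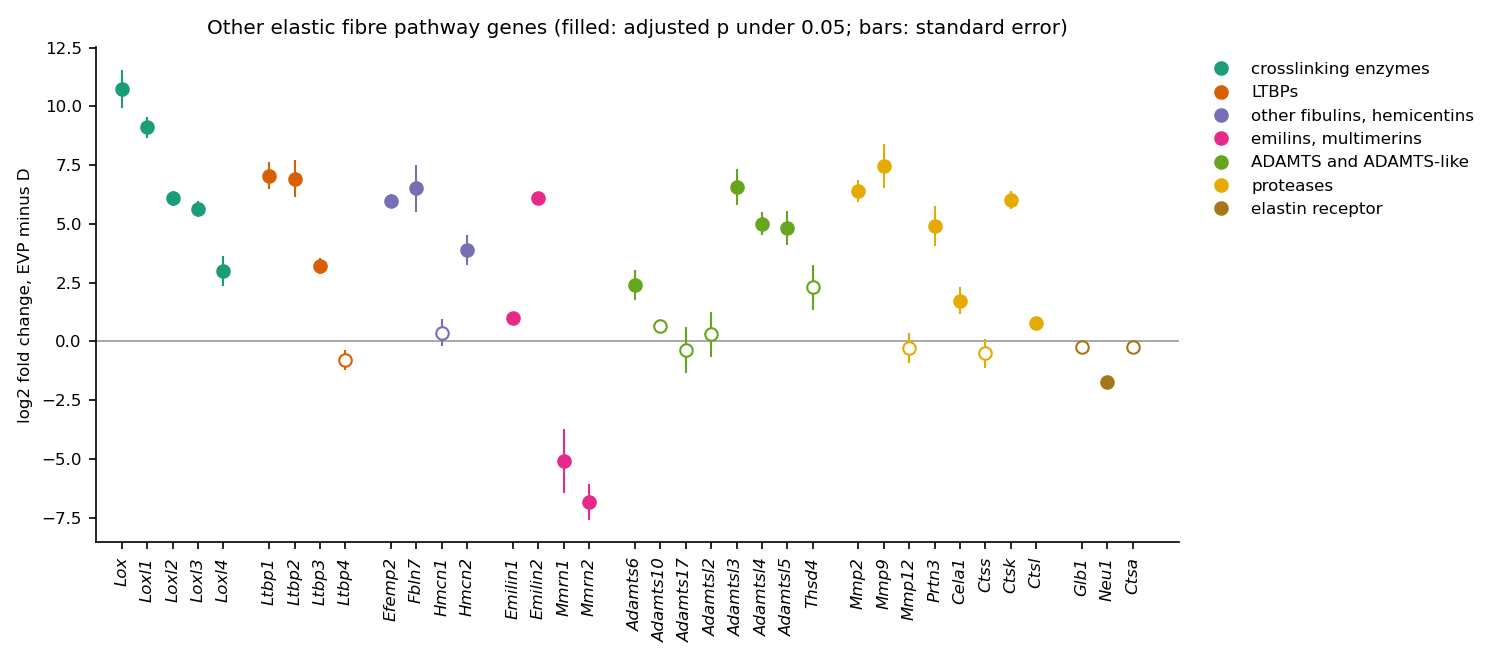
Log2 fold changes for EVP minus D (vertical axis) of the 36 tested genes of 7 elastic fibre pathway lists, colored by list, with standard errors as lines and filled points where the adjusted p was under 0.05. All 5 crosslinking enzymes lie above 0, and *Mmrn1*, *Mmrn2* and *Neu1* are the filled points below 0.

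The profile of each gene over the 15 libraries, as log2 values minus their own mean, was compared with that of every other tested gene by the root mean square difference, where 0 is an identical profile. The nearest genes outside the 10 were *Serpinf1* for *Fbn1* (0.42), *Obsl1* for *Fbn2* (0.59), *Serping1* for *Mfap2* (0.44), *C1qtnf7* for *Mfap4* (0.93), *Lox* for *Mfap5* (0.63), *Lrp1* for *Fbln1* (0.38), *Sec16b* for *Fbln2* (0.32), *Mr1* for *Fbln5* (0.26) and *Dcn* for *Efemp1* (0.47). *Dcn* is also on the list of fibroblast markers. For *Eln* the nearest were *Fmo1* (0.62), *Fxyd6* (0.66), *Adh1* (0.67), *Xdh* (0.67) and *Hspb8* (0.71), where the median over all tested genes was 2.25. Among the 10 genes themselves, *Fbn1* and *Mfap2* were nearest to each other (0.68), as were *Fbln1* and *Fbln2* (0.80). *Fbln5* was far from the other 9, with *Fbln2* the nearest at 1.47, close to the median of 1.54 for *Fbln5* over all tested genes.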

How the data were processed

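Sorted EVP, TA and D cells were sequenced from oligo-dT primed, Smart-Seq2 amplified and Nextera XT libraries. The authors aligned the reads with STAR (2.5.3a), counted them per gene of Ensembl release 91 on GRCm38 and then scaled the gene counts by size factors from DESeq2 (1.10.1). The deposited table holds these normalized counts, treated here as a signal, since reads are divided by a size factor for each library. Dividing by the smallest step of each library gave whole reads for 100% of values (tolerance 0.01), which were used for depth, for levels per length and for the edgeR and DESeq2 alternatives. Deposited tables of the authors' own fold changes and p-values were not used. Depth was 5394356 to 26513073 reads on genes, and intervals and floors cover counting error only, since PCR copies were not marked.

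Genes whose mean reached 5 normalized counts were fitted as log2(normalized count + 1) with limma (3.58.1, R 4.3.3) over all 15 libraries, with a coefficient for each population, a mean trend and two-sided tests, and p-values were adjusted by Benjamini-Hochberg over the 25549 genes tested. Ratios were tested by exact two-sided permutation (scipy 1.17.1) and adjusted over 9 tests. Exon lengths came from the reference annotation, with all annotated exons of a gene merged, and gene coordinates are on GRCm38. The 10 genes and all lists were chosen with earlier results of these data known. Besides the 10 genes, the text names the gene of each pathway list with the largest called change, genes called against the direction of the 10, the nearest profiles and marker genes that check a label; *Ltbp4*, *Emilin1* and *Emilin2* were added after their values were seen. Alternatives were other constants, filters, scalings, weights, subsets of libraries, a replicate term, edgeR (4.0.16) and DESeq2 (1.42.0).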

Additional observations from a re-analysis of the deposited data

Results flagged for a closer look

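Among 39 sets of 5 values, taken on the log2 scale, 4 had a library far from the others relative to the whole range. The cutoff passes about 1 in 20 sets of normally distributed values. That rate does not apply to sets with several 0s, such as *Mfap4* in D. *Mfap4* in D replicate 4 read 21.8 normalized counts, and the other D libraries read 0 to 0.816. *Efemp1* in TA replicate 2 read 10580.5, against 3382 to 4409 in the other TA libraries. *Efemp1* in D replicate 1, a library with a high count of olfactory receptor genes, read 89.2, against 23.6 to 32.7 in the others. The log2 ratio of *Mfap5* to *Mfap2* in TA replicate 3 was 3.88, against 2.08 to 2.39.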

How the results depend on the processing

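All 10 genes stayed called for EVP against D and for TA against D in all 27 alternatives, and no log2 fold change of the 10 genes changed sign in any comparison. For EVP against TA the 4 called genes became 7 in a fit of only these populations and 3 to 6 with a library left out. *Fbln1*, *Fbln2* and *Efemp1* passed in all 27 alternatives and *Fbn1* in 20, while *Mfap4* and *Fbln5* passed in none. *Mfap2* passed in 9, *Eln* in 4, and *Fbn2* and *Mfap5* in 1 each. DESeq2 called 6 genes, adding *Eln* (adjusted p = 0.0355) and *Mfap2* (adjusted p = 0.00909) to the 4. The lowest and highest counts of pathway genes called with a library left out were 4 and 14 for EVP against TA (main 12), and the count was 7 with no filter and 6 with array weights, with edgeR or without the replicate 1 library of every population. Over all genes, EVP against TA gave 893 calls, 428, 471 and 568 without EVP replicate 2, EVP replicate 3 or TA replicate 3, 522 without the replicate 1 libraries and 1209 without TA replicate 5. The causes of these shifts were not tested. DESeq2 gave 1900 calls there, and array weights gave 7609 for EVP against D (main 4859) and 5054 for TA against D (main 3199), where quantile normalization gave 2117.

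The ratio of *Fbn2* to *Fbn1* passed with a constant of 8, at -2.34 for EVP against D and -1.79 for TA against D. That constant is above the *Fbn2* counts of D replicates 2, 3 and 4. With a constant of 0.5 the ratio did not pass, at -1.27 and -0.75 (adjusted exact permutation p = 0.286 and 0.455). The ratio of *Mfap5* to *Mfap2* kept its direction but lost its call with a library left out (3.30 to 4.78 for EVP and 3.21 to 4.69 for TA against D) and without the replicate 1 libraries (4.84 and 4.77, adjusted exact permutation p = 0.129), where fewer libraries raise the smallest p. Its difference between EVP and TA ranged from -0.0700 to 0.419 with a library left out, and was -0.0700 without EVP replicate 3, -0.0017 without TA replicate 2 and -0.03 without TA replicate 5.

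The labels do not say that replicate numbers pair libraries, and same-numbered libraries did not all deviate together. Their correlations ran from -0.136 (EVP and TA replicate 3) to 0.689, and in 12 of 15 cases a library correlated best with its own number in the other population, which is a hint from the data and not from the design. With the replicate number as a block, 10, 6 and 10 of the genes were called for EVP against D, EVP against TA and TA against D, and the calls gained between EVP and TA were *Eln* (1.87, adjusted p = 0.0191) and *Mfap2* (1.84, adjusted p = 0.0113). The block left the *Mfap5* to *Mfap2* differences at 4.07 and 3.98, where the sign-flip test cannot go below 0.0625 (exact permutation, adjusted p = 0.281).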
